A study of Mus musculus with 36 samples.

Results

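Elastic fibres are described here through 10 genes, namely the elastin gene Eln, the fibrillin genes Fbn1 and Fbn2, the microfibril gene Mfap5, the fibulin genes Fbln1, Fbln2, Fbln5, Efemp1 and Efemp2, and the crosslinking enzyme gene Lox. They were chosen by name from the table of read counts, in which 55487 genes are listed. All 10 listed genes were among the 15489 that passed the filter on low counts, so each had a test in each comparison.

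Elastic fibres give skin, arteries and lungs their recoil. Their core is crosslinked elastin, laid down on a scaffold of microfibrils that fibrillins build, and fibulins bring tropoelastin to the scaffold and to lysyl oxidase, which makes the crosslinks. Fibroblasts secrete most of these proteins, and glucocorticoids, which act through the glucocorticoid receptor (GR), are known for their effects on connective tissue.

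The libraries were bulk RNA-seq of primary murine embryonic fibroblasts (MEFs), treated for 5 h with vehicle or with 1 µM dexamethasone (Dex), a synthetic ligand of GR. In run 1, cells with normal receptor (GRwt/wt) were profiled beside GRD/D cells, which carry a point mutation in the DNA-binding domain, GRD+L/D+L cells, which carry this mutation and one in the ligand-binding domain, and GRko/ko cells without functional receptor. In run 2, GRL/L cells, with the ligand-binding domain mutation alone, were profiled beside GRwt/wt. There were 3 libraries per genotype, run and treatment, from cultures that the submitters describe as coming from separate mice, which makes 24 libraries in run 1 and 12 in run 2. The labels give the FVB/NJ strain for every library, whereas the study's methods name 129 Sv for the mice with the null allele and a FVB/NJ backcross for the L and D+L alleles, so that strain and genotype cannot be told apart in the comparison of GRko/ko. MEFs are a mixture of mesenchymal cells of the embryo after head and organs are removed.

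Library totals ran from 15280166 to 19102035 counts in run 1 and from 21532686 to 28662608 in run 2. Summed markers of fibroblasts lay between 30951 and 51162 CPM (read counts relative to the library total, scaled between libraries by TMM) in all libraries, and none of the 8 was at 0 throughout a group. Single markers could vary more than the sum. Over all libraries Pdgfra ran from 15.6 to 435 CPM and Col3a1 from 900.2 to 5609 CPM, whereas Pdgfrb ran from 249.8 to 444 CPM. The sum of 6 smooth muscle and myofibroblast markers was at least 10129.9 CPM in run 1 and at most 3332 CPM in run 2. Pairs of vehicle libraries of GRD/D differed more than those of other groups, with a chi-square per gene of 8.3 to 26.5 against at most 7.6, except for GRwt/wt Dex of run 2, which reached 19.3, and their summed fibroblast markers ran from 32787 to 49428 CPM. Nr3c1, which encodes GR, was at 15.9 to 20.4 CPM in the GRko/ko libraries and at 47.8 to 105 CPM in the others. All GRwt/wt libraries of run 1 and all GRD/D libraries had Xist, the RNA of the inactive X chromosome, at 165 CPM or more, whereas in all other groups Xist was at 14.1 CPM or less and the Y-linked Ddx3y at 67.1 CPM or more. The sex of the cells therefore differed between GRwt/wt of run 1 and both GRD+L/D+L and GRko/ko, and its part in those comparisons cannot be told apart from the genotype. Within GRwt/wt, it differed between the runs.

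In build mm10, Eln (ENSMUSG00000029675) lies on chromosome 5 from 134702593 to 134747323 on the minus strand. Of the microfibril genes, Fbn1 (ENSMUSG00000027204) lies on chromosome 2 from 125300594 to 125507993, minus strand, Fbn2 (ENSMUSG00000024598) on chromosome 18 from 58008623 to 58210487, minus strand, and Mfap5 (ENSMUSG00000030116) on chromosome 6 from 122505845 to 122529290, plus strand. Of the fibulin genes, Fbln1 (ENSMUSG00000006369) lies on chromosome 15 from 85205949 to 85286535, Fbln2 (ENSMUSG00000064080) on chromosome 6 from 91212455 to 91272540, Efemp1 (ENSMUSG00000020467) on chromosome 11 from 28853204 to 28926743 and Efemp2 (ENSMUSG00000024909) on chromosome 19 from 5473954 to 5482517, these 4 on the plus strand, whereas Fbln5 (ENSMUSG00000021186) lies on chromosome 12 from 101746565 to 101819055 on the minus strand. Lox (ENSMUSG00000024529) lies on chromosome 18 from 52516067 to 52529867 on the minus strand. Each is a protein-coding gene.

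In vehicle-treated GRwt/wt cells the members spanned a wide range of levels. Per kb of exon length, Fbln2 stood at 1213 CPM in run 1 and 533 CPM in run 2, and Lox at 861 and 596 CPM, which placed both above 99% of the genes tested in both runs. Efemp2, Fbn1 and Fbln5 followed between 56.9 and 121 CPM per kb. Eln was the member that differed most between the runs, with 0.285 CPM per kb in run 1 and 28.5 in run 2. Its 3 vehicle libraries of run 1 held 28, 33 and 44 reads of Eln, and those of run 2 held 7670, 6768 and 4721. The mean level of Eln was 99.9 times as high in run 2, that of Fbn2 5.07 times and that of Efemp1 4.13 times, whereas Fbln2 was 2.27 times as high in run 1. For Eln, Fbn2, Efemp1 and Fbln2, the 3 libraries of one run did not overlap those of the other. The share of all genes for which this held was not counted, so it cannot be called a trait of these genes. The runs differed also in the sex of the cells and in the smooth muscle markers, and run cannot be told apart from culture, so these levels were not tested. Tests below were made within a run, except where the change with Dex is compared between the GRwt/wt runs.

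**Figure D1:**
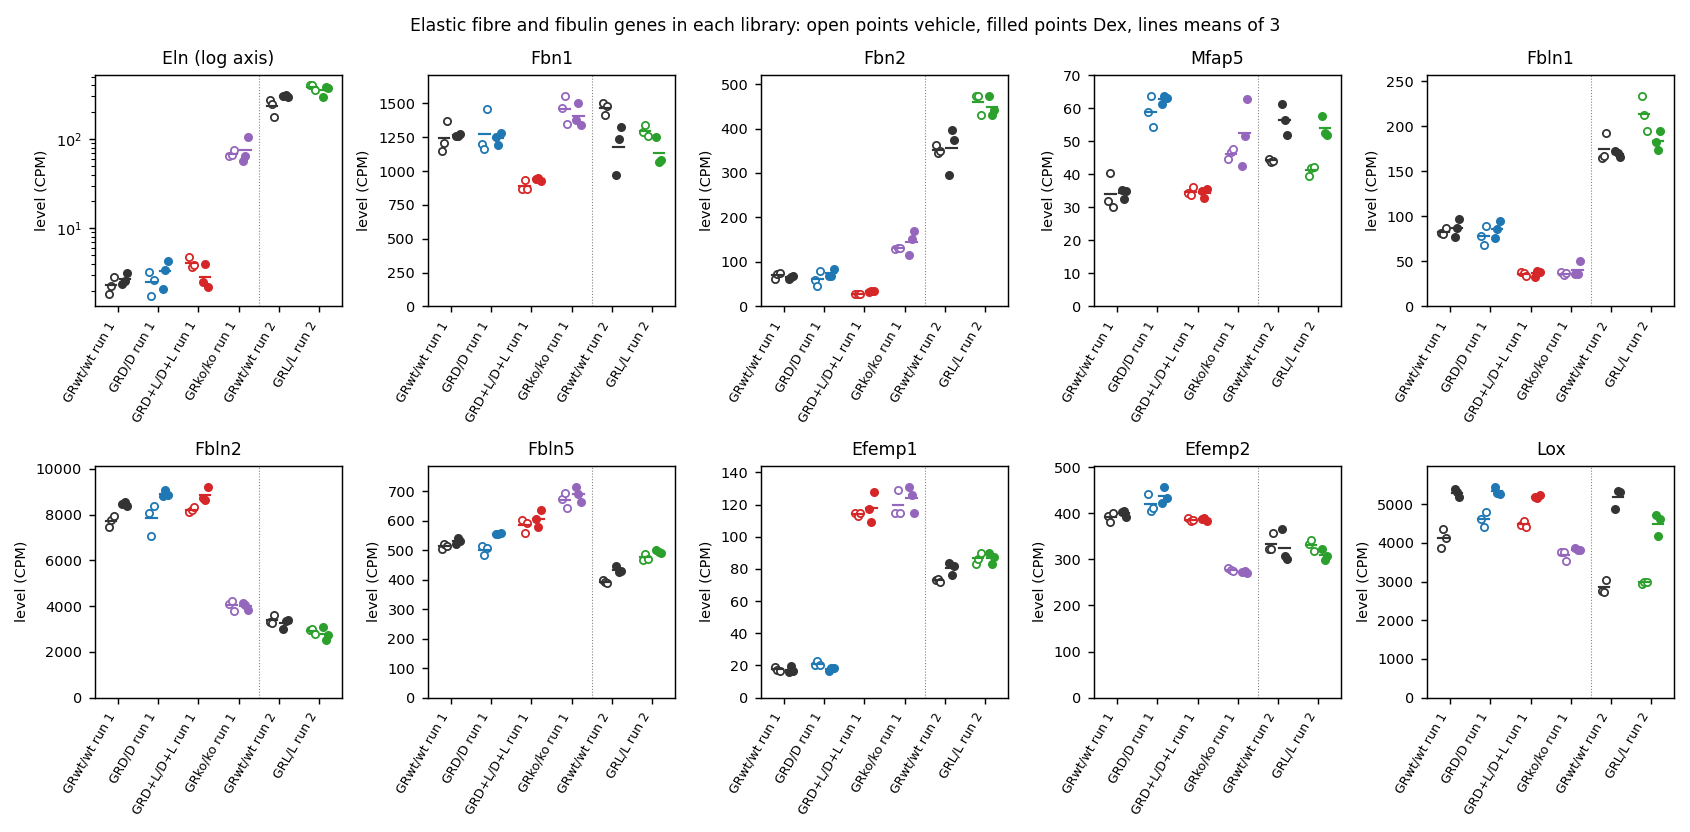
Level of each of the 10 genes in every library (y axis, CPM, from 0 on a linear axis except for Eln on a log axis) by genotype and run (x axis), with open points for vehicle, filled points for Dex and short lines for the mean of 3 libraries. Eln lies under 5 CPM in GRwt/wt, GRD/D and GRD+L/D+L of run 1 and above 50 CPM in GRko/ko and in run 2, and Lox is the gene whose filled points lie above the open ones in each group.

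Dex raised Lox in both runs of GRwt/wt and in each of the 3 point mutants, and no other member was called in more than 2 of the 6 comparisons of Dex with vehicle. Lox encodes lysyl oxidase, the copper enzyme that oxidises lysines of tropoelastin and collagen. In run 1, its level in GRwt/wt was 3862, 4364 and 4114 CPM with vehicle and 5398, 5325 and 5172 CPM with Dex. In run 2, it was 2757, 2739 and 3045 CPM with vehicle and 4883, 5337 and 5313 CPM with Dex. The libraries of the 2 treatments did not overlap in either run. The log2 fold change was 0.37 (SE 0.05, n = 3 and 3, adjusted p = 1.99e-07, edgeR) in run 1 and 0.86 (SE 0.05, n = 3 and 3, adjusted p = 2.46e-17, edgeR) in run 2, and these changes differed from each other by 0.50 on the log2 scale (SE 0.07, adjusted p = 1.48e-06, edgeR). Mean Lox with Dex was 5298 CPM ± 115 (SD, n = 3) in run 1 and 5178 CPM ± 255 (SD, n = 3) in run 2. The vehicle level was 1.44 times as high in run 1, and levels were not tested between the runs.

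The mutants were each compared with GRwt/wt of their own run. In GRL/L, Lox was at 2945, 2991 and 2993 CPM with vehicle and at 4709, 4175 and 4609 CPM with Dex. This was a rise of 51.1%, against 81.9% in GRwt/wt of the same run. The log2 fold change was 0.60 (SE 0.05, adjusted p = 1.63e-12, edgeR), smaller than that in GRwt/wt by 0.27 on the log2 scale (SE 0.07, adjusted p = 0.0242, edgeR). That difference did not pass when the fit held only the genotypes compared (adjusted p = 0.146), nor in the formula of the study, where both runs of GRwt/wt are pooled (log2 difference -0.02, adjusted p = 0.978), nor without any 1 of 7 of the 12 libraries, namely GRL/L vehicle replicates 2 and 3 and Dex replicate 2, and GRwt/wt vehicle replicates 4 and 5 and Dex replicates 5 and 6 (adjusted p from 0.0506 to 0.105).

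In run 1, mean Lox with Dex was above that with vehicle by 28.8% in GRwt/wt, 15.7% in GRD/D and 15.8% in GRD+L/D+L. In GRko/ko the means differed by 3.54%, which was not called. The GRD/D libraries had 4610.4, 4421 and 4792 CPM of Lox with vehicle and 5444, 5289.7 and 5267 CPM with Dex. The GRD+L/D+L libraries had 4464, 4576 and 4411 CPM with vehicle and 5182, 5149.9 and 5246 CPM with Dex. Vehicle and Dex libraries did not overlap in either mutant. The log2 fold change was 0.21 in both (SE 0.05 in each, adjusted p = 0.00191 in GRD/D and 0.00302 in GRD+L/D+L, edgeR). In GRD/D this call was lost when only the genotypes compared were fitted (adjusted p = 0.0898), and in the formula of the study it was lost in both mutants (adjusted p = 0.0752 and 0.142). The difference from GRwt/wt was -0.15 on the log2 scale in both and did not pass (SE 0.07 in each, adjusted p = 0.314 for GRD/D and 0.308 for GRD+L/D+L, edgeR), which does not show that the changes were alike. Against the pooled GRwt/wt of the formula of the study, which adds the larger change of run 2, it passed in both (log2 difference -0.40 in each, adjusted p = 0.00415 and 0.00434).

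In GRko/ko, Lox was at 3775, 3771 and 3539 CPM with vehicle and at 3863, 3808 and 3805 CPM with Dex. Although the ranges did not overlap, the log2 fold change of 0.05 (SE 0.05, adjusted p = 0.945, edgeR) did not pass. It was smaller than that in GRwt/wt of run 1 by 0.31 on the log2 scale (SE 0.07, adjusted p = 0.00119, edgeR). The comparisons of GRD/D, GRD+L/D+L and GRko/ko share the GRwt/wt libraries of run 1.

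Among the 10 members, Dex changed 1 in GRwt/wt of run 1, which was Lox and rose, where 7.74% of all genes tested rose and 6.2% fell. In GRwt/wt of run 2, 4 rose and 1 fell, against 14.9% and 16.7% of all genes. The 4 that rose were Lox, Eln, Mfap5 and Fbln5, and the 1 that fell was Fbn1. In GRD/D, 3 rose (Lox, Fbln5 and Fbln2) and 1 fell (Efemp1), against 5.63% and 6.24%, and the calls of Fbln5, Fbln2 and Efemp1 were each lost without vehicle replicate 2. In GRL/L, Lox and Mfap5 rose, 2 of 10, and none fell, against 8.79% and 10.4%. In GRD+L/D+L, Lox rose, 1 of 10, and none fell, against 3.08% and 1.92%. In GRko/ko no member was called, and the share of all genes called by edgeR was 0%, with 859 genes at an unadjusted p under 0.05, none of them a member; DESeq2 also called 0 members. No change of a member with Dex reached 1 on the log2 scale, in either direction, in any genotype.

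**Figure D2:**
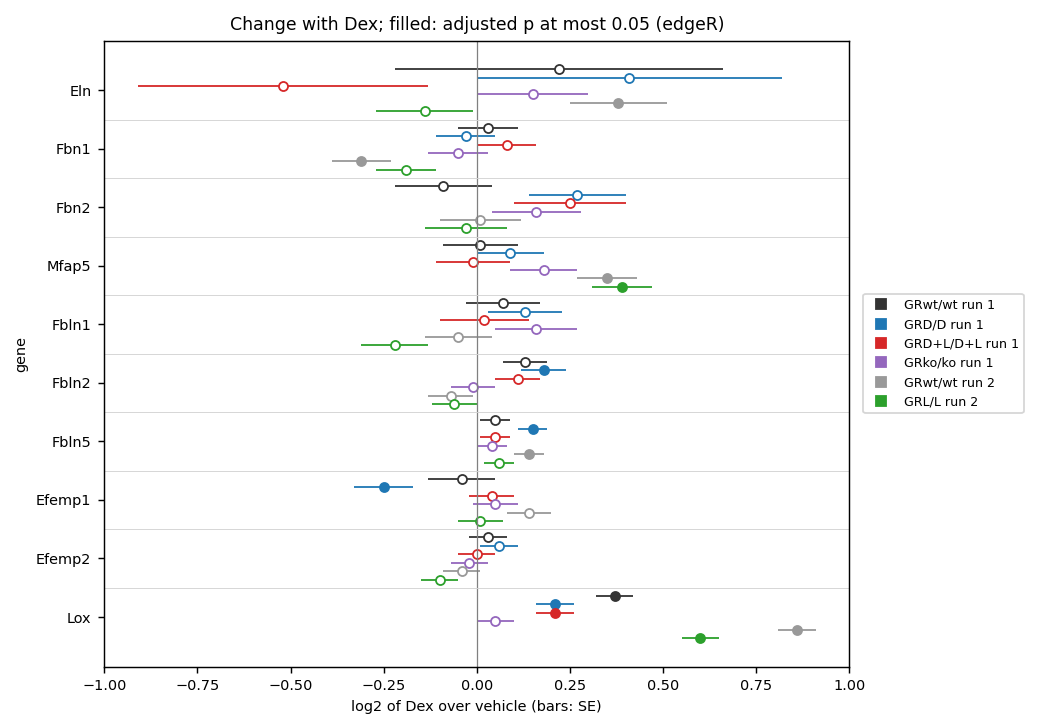
Change with Dex of each gene (x axis, log2 of Dex over vehicle, with the standard error as a bar) by genotype and run (colours), with filled points for changes at an adjusted p of at most 0.05 in edgeR. Lox is filled in 5 of 6 groups, from 0.21 to 0.86, while the open point of GRko/ko lies at 0.05.

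The changes with Dex outside Lox were small. Eln, which encodes tropoelastin, was at 271, 247 and 175 CPM with vehicle and at 299, 310.1 and 294 CPM with Dex in GRwt/wt of run 2. The log2 fold change of 0.38 (SE 0.13, adjusted p = 0.0246, edgeR) did not pass with DESeq2 (adjusted p = 0.184), nor without the lowest vehicle library, replicate 6 (log2 fold change 0.22, adjusted p = 0.231), nor without Dex replicate 5 (adjusted p = 0.0637). In GRL/L, Eln was at 400.1, 401 and 355 CPM with vehicle and at 295, 382 and 370.2 CPM with Dex, and these ranges overlapped. The log2 fold change was -0.14 (adjusted p = 0.528), and its difference of -0.53 from GRwt/wt did not pass (SE 0.19, adjusted p = 0.178).

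Microfibril genes moved in both directions in run 2. Mfap5 encodes a small glycoprotein of microfibrils that binds fibrillin. It rose with Dex from 44.8, 43.9 and 44.2 CPM to 61.4, 56.5 and 52.0 CPM in GRwt/wt and from 39.5, 41.8 and 42.4 CPM to 57.8, 52.5 and 52.0 CPM in GRL/L. The ranges were apart in both genotypes, with a log2 fold change of 0.35 (SE 0.08, adjusted p = 0.000972) and 0.39 (SE 0.08, adjusted p = 0.000505) by edgeR. In run 1, the log2 fold change of Mfap5 was between -0.01 and 0.18 in the 4 genotypes and none passed. The test of the difference between the GRwt/wt runs for Mfap5 gave 0.35 on the log2 scale (SE 0.13, adjusted p = 0.104, edgeR).

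Fbn1 encodes fibrillin-1, the main protein of microfibrils. It was at 1500.4, 1414 and 1478 CPM with vehicle and at 970, 1238 and 1327 CPM with Dex in GRwt/wt of run 2. All Dex libraries lay below the vehicle libraries, and the log2 fold change was -0.31 (SE 0.08, adjusted p = 0.00237, edgeR). Without the lowest Dex library, replicate 4, it was -0.19 (adjusted p = 0.055). In GRL/L, Fbn1 was at 1286, 1341 and 1256 CPM with vehicle and at 1250.4, 1065 and 1082 CPM with Dex, with a log2 fold change of -0.19 that did not pass (adjusted p = 0.0938). In run 1, its log2 fold change was between -0.05 and 0.08. Fbn2, which encodes the fibrillin of embryonic tissue, had log2 fold changes between -0.09 and 0.27 in the 6 groups, and none passed. In GRD/D, however, without vehicle replicate 3 it was 0.51 (adjusted p = 0.00358).

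Among the fibulins, Fbln5 encodes the fibulin that binds tropoelastin, lysyl oxidase-like enzymes and integrins. It rose in GRwt/wt of run 2 from 399.6, 393 and 387 CPM to 445, 424 and 428 CPM (log2 fold change 0.14, SE 0.04, adjusted p = 0.00675). It rose in GRD/D from 513, 482 and 507 CPM to 554, 555 and 557 CPM (log2 fold change 0.15, SE 0.04, adjusted p = 0.00879, both edgeR). The treatments did not overlap in either group. The call in GRD/D did not pass without vehicle replicate 2 (adjusted p = 0.0609) or when only the genotypes compared were fitted (adjusted p = 0.167), and that in GRwt/wt of run 2 gave 0.056 in the corresponding fit. With no filter on low counts neither passed (adjusted p = 0.0589 in GRD/D and 0.0599 in GRwt/wt of run 2).

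The 2 other calls in GRD/D lay near the threshold. Fbln2, the fibulin of basement membranes and fibroblast matrix, rose there from 8084, 7067 and 8367 CPM to 8808, 9059.7 and 8846 CPM (log2 fold change 0.18, SE 0.06, adjusted p = 0.0411, edgeR), and leaving out Dex replicate 1, 2 or 3 or vehicle replicate 2 took the adjusted p to between 0.0659 and 0.274. Efemp1, which encodes fibulin-3, fell there from 20.4, 22.7 and 20 CPM to 16.6, 18.2 and 18.5 CPM (log2 fold change -0.25, SE 0.08, adjusted p = 0.0493, edgeR), and leaving out any of its libraries but vehicle replicate 3 took it to between 0.0555 and 0.255. Fbln1 and Efemp2, which encode fibulin-1 and fibulin-4, were not called with Dex in any genotype, with log2 fold changes between -0.22 and 0.16 for Fbln1 and between -0.10 and 0.06 for Efemp2.

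With vehicle alone, the largest differences of the members between genotypes were in GRko/ko, where Eln was 29.7 times and Efemp1 6.78 times as high as in GRwt/wt of run 1, and in GRD+L/D+L, where Efemp1 was 6.48 times as high and Fbln1 and Fbn2 were 2.30 and 2.45 times lower. All 10 members were called in GRko/ko, 6 higher and 4 lower, where 24.4% of all genes tested were higher and 21.3% lower. In GRD+L/D+L, 3 were higher and 3 lower, against 13.9% and 15.9%. In GRD/D, 3 were higher and none lower, against 5.66% and 3.89%. In GRL/L, 5 were higher and 1 lower than in GRwt/wt of run 2, against 6.88% and 4.47%. In bulk RNA, fewer cells of a type and less RNA per cell cannot be told apart. The p-values rest on an estimate of the spread that all 12 groups of libraries share, not on that of the compared groups alone. In GRD/D, whose vehicle libraries differed most, 1 member rather than 3 was called when only the genotypes compared were fitted. Each genotype is known from a single set of 3 cultures per run. Within a genotype and run, all libraries were of the same sex by Xist and Ddx3y, and replicate numbers did not pair vehicle with Dex libraries. How far the 3 libraries of a group are independent was not tested, so a small p-value does not show a difference repeated over separate mice.

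**Figure D3:**
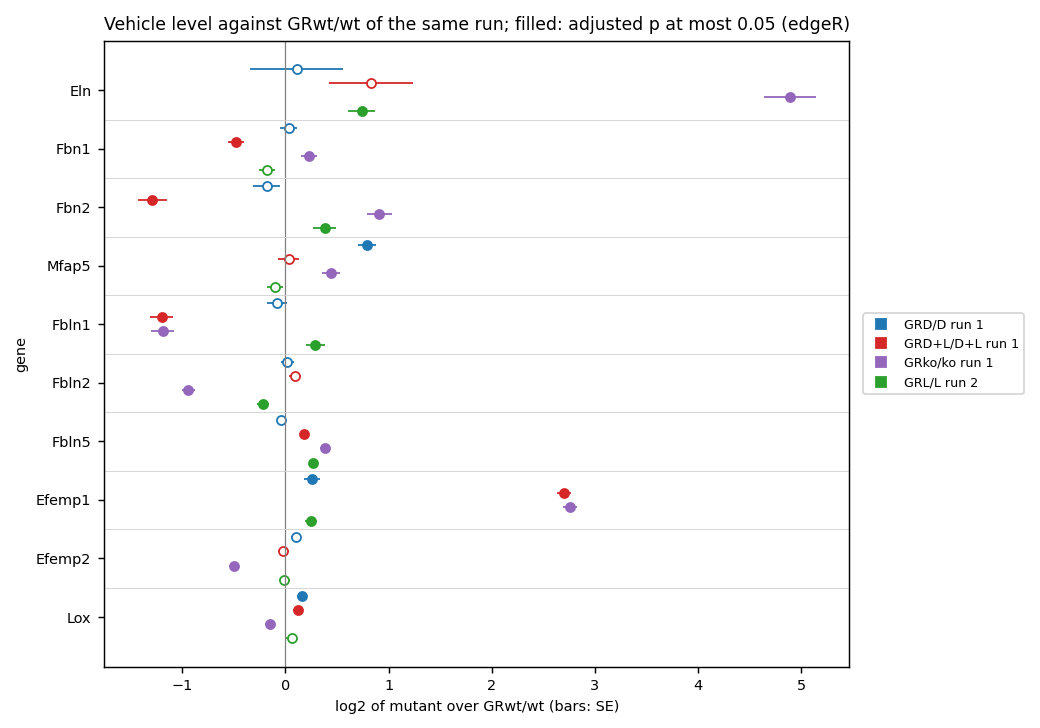
Vehicle level of each gene in the mutants (x axis, log2 of mutant over GRwt/wt of the same run, with the standard error as a bar; colours give the genotype), with filled points for differences at an adjusted p of at most 0.05 in edgeR. Eln lies at 4.89 in GRko/ko, and Efemp1 at 2.70 in GRD+L/D+L and 2.76 in GRko/ko, far from its 0.26 in GRD/D and 0.25 in GRL/L.

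The elastin core differed most. Eln was at 64.7, 65.9 and 75.5 CPM in vehicle-treated GRko/ko cells and at 1.82, 2.26 and 2.85 CPM in GRwt/wt of run 1, a log2 difference of 4.89 (SE 0.25, adjusted p = 1.35e-18, edgeR). In GRD+L/D+L it was at 4.79, 3.71 and 3.88 CPM, which is above the 3 GRwt/wt libraries, but the log2 difference of 0.83 (SE 0.41, adjusted p = 0.125, edgeR) did not pass. It did pass with DESeq2 (adjusted p = 0.0138), with only the genotypes compared (0.00194), with the formula of the study (0.0318) and with no filter on low counts (2.7e-05). These are levels of 28 to 73 reads per library. GRD/D, with 3.21, 1.76 and 2.62 CPM, overlapped GRwt/wt (log2 difference 0.11, SE 0.45, adjusted p = 0.927, edgeR). In run 2, where Eln was high, GRL/L had 400.1, 401 and 355 CPM against 271, 247 and 175 CPM in GRwt/wt, a log2 difference of 0.74 (SE 0.13, adjusted p = 0.000123, edgeR).

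Both fibrillin genes were lower in GRD+L/D+L and higher in GRko/ko. Fbn2 was at 61.1, 71.9 and 75.3 CPM in GRwt/wt of run 1, at 28.7, 28.8 and 27.6 CPM in GRD+L/D+L and at 129, 131 and 131 CPM in GRko/ko. These groups did not overlap, and the log2 difference from GRwt/wt was -1.29 (SE 0.14, adjusted p = 2.63e-09) in the first mutant and 0.91 (SE 0.12, adjusted p = 1.03e-07) in the second by edgeR. GRD/D libraries spread from 46.1 to 79.6 CPM and were not called (log2 difference -0.18, adjusted p = 0.451), although without the highest one, replicate 3, the difference was -0.42 (adjusted p = 0.0174). In run 2, Fbn2 was at 473, 474 and 431 CPM in GRL/L and at 363, 345 and 349 CPM in GRwt/wt (log2 difference 0.38, SE 0.11, adjusted p = 0.0174, edgeR), a call that did not pass with DESeq2 (adjusted p = 0.0543) or without GRL/L replicate 1 or 2 or GRwt/wt replicate 5 or 6 (0.057 to 0.0695).

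Fbn1 was at 871, 931 and 868 CPM in GRD+L/D+L against 1147, 1211 and 1371 CPM in GRwt/wt, a log2 difference of -0.48 (SE 0.08, adjusted p = 1.31e-05, edgeR). In GRko/ko, at 1469, 1558 and 1347 CPM, its range overlapped that of GRwt/wt. The log2 difference of 0.23 (SE 0.08, adjusted p = 0.0182, edgeR) was not called without GRko/ko replicate 2 or GRwt/wt replicate 1 or 2 (adjusted p from 0.0708 to 0.128), nor in the formula of the study (adjusted p = 0.171). In GRL/L, Fbn1 was 1.13 times lower than in GRwt/wt and not called (log2 difference -0.18, adjusted p = 0.165, edgeR).

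Mfap5 was the member with the largest difference in GRD/D. It was at 58.8, 63.9 and 54.4 CPM there against 32.0, 40.4 and 30.1 CPM in GRwt/wt, a log2 difference of 0.79 (SE 0.09, adjusted p = 7.03e-08, edgeR). In GRko/ko it was at 44.6, 46.8 and 47.6 CPM (log2 difference 0.44, SE 0.09, adjusted p = 0.000164, edgeR), above all GRwt/wt libraries. GRD+L/D+L and GRL/L differed from their GRwt/wt by 0.03 and -0.10 on the log2 scale and were not called (adjusted p = 0.866 and 0.518).

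For the fibulins whose levels differed most between genotypes, the sequences around the transcript starts are shown, each 300 bases from 250 before the start, in build GRCm38.p6 from RefSeq. Entries were found for 6 of the 10 members, and of the genes shown Fbln1 has 2, of which the first is printed. Both strands were searched for AGAACA, a hexamer that GR binds; the full palindromic GR response element made of such hexamers; TATAAA, the TATA box; TGACTCA, the AP-1 site; GGGCGG, the SP1 box; and CACGTG, the E box, which reads alike on both strands. Capitals mark the matches, and no 2 of these matches overlapped in the sequences shown.
Efemp1, chr11:28852955-28853254, plus strand: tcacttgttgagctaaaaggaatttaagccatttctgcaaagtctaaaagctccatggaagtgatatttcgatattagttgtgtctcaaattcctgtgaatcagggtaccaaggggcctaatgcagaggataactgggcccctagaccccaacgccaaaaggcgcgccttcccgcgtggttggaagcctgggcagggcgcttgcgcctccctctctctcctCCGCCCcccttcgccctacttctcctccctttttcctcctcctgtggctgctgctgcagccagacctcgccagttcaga
Fbln1, chr15:85205699-85205998, plus strand: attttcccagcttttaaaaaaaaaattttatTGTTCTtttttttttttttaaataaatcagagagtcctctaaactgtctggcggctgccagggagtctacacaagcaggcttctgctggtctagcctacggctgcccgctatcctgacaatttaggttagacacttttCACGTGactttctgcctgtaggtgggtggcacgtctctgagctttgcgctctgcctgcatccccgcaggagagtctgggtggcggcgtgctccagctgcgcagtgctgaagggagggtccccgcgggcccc
Fbln2, chr6:91212514-91212813, plus strand: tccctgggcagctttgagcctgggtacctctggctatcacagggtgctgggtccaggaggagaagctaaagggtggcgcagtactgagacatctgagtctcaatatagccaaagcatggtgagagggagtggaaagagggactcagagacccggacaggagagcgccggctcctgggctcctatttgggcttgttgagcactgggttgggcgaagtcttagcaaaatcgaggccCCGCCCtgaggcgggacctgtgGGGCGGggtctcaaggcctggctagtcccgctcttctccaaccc
Efemp1, which was higher in GRD+L/D+L and GRko/ko, held 1 SP1 box on the minus strand at -29 to -24 from the start. Fbln1, which was lower in both, held 1 GR hexamer on the minus strand at -219 to -214 and an E box at -81 to -76. The second entry of Fbln1, which starts its window at 85205758, held no GR hexamer, the same E box at -140 to -135, and 2 SP1 boxes, at -11 to -6 and at 12 to 17. Fbln2, which was lower in GRko/ko, held 2 SP1 boxes, at -16 to -11 and at 7 to 12. Of the 32851 RefSeq promoters of this length, 35.66% held an SP1 box, 18.97% a GR hexamer, 7.15% an E box, 13.62% a TATA box, 5.2% an AP-1 site and 0.01% the full palindrome. A match is a description of these letters and not a site of binding.

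Efemp1 encodes fibulin-3, which is found in fascia and around vessels. Its vehicle levels in run 1 fell into a low and a high pair of genotypes, 18.9, 17.4 and 16.6 CPM in GRwt/wt and 20.4, 22.7 and 20 CPM in GRD/D against 115, 113 and 115 CPM in GRD+L/D+L and 115, 129 and 115 CPM in GRko/ko. The low pair was also the pair with high Xist, and the high pair that with high Ddx3y. The log2 difference from GRwt/wt was 2.70 (SE 0.07, adjusted p = 7.6e-26) in GRD+L/D+L and 2.76 (SE 0.07, adjusted p = 6.95e-27) in GRko/ko by edgeR, with the GRwt/wt libraries shared. In GRD/D the ranges were apart too, but the call (log2 difference 0.26, SE 0.08, adjusted p = 0.0465, edgeR) did not pass with DESeq2 (adjusted p = 0.0583), with only the genotypes compared (0.126) or without replicate 1 or 2 of GRD/D or replicate 2 or 3 of GRwt/wt (0.0625 to 0.294). In run 2, where the cells of both genotypes had high Ddx3y, Efemp1 was at 83.1, 86.3 and 90.1 CPM in GRL/L and at 72.9, 73.8 and 71.9 CPM in GRwt/wt (log2 difference 0.25, SE 0.06, adjusted p = 0.00391, edgeR).

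Fbln1 encodes fibulin-1, a matrix protein of elastic fibres and basement membranes. It split run 1 the same way with the opposite sign, at 81.2, 80.0 and 87.3 CPM in GRwt/wt and 78.3, 67.6 and 89.3 CPM in GRD/D against 37.6, 36.8 and 33.5 CPM in GRD+L/D+L and 37.8, 34.3 and 37.0 CPM in GRko/ko. The log2 difference from GRwt/wt was -1.20 (SE 0.11, adjusted p = 6.02e-11) in GRD+L/D+L and -1.19 (SE 0.11, adjusted p = 1.3e-11) in GRko/ko by edgeR, and GRD/D was not called (-0.08, adjusted p = 0.712). In run 2, where the cells of both genotypes had high Ddx3y, Fbln1 was at 234, 213 and 195 CPM in GRL/L and at 165, 167 and 193 CPM in GRwt/wt. These levels lay above those of every group of run 1, and run cannot be told apart from culture. The log2 difference in run 2 was 0.29 (SE 0.09, adjusted p = 0.0315, edgeR). It did not pass with DESeq2 (adjusted p = 0.0515) or without GRL/L replicate 1 or 2 or GRwt/wt replicate 4 or 5 (0.0745 to 0.207).

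Fbln2 and Efemp2 were lower in GRko/ko and not called in GRD/D or GRD+L/D+L. Fbln2, the member with the highest level per kb in run 1, was at 7458, 7776 and 7954 CPM in GRwt/wt and at 4112, 4221 and 3774 CPM in GRko/ko, a log2 difference of -0.94 (SE 0.06, adjusted p = 1.21e-15, edgeR). In GRL/L it was at 2970.4, 2978 and 2776 CPM against 3323, 3256 and 3614 CPM (log2 difference -0.22, SE 0.06, adjusted p = 0.0108, edgeR), a call lost without GRL/L replicate 3 (adjusted p = 0.0716), without GRwt/wt replicate 6 (0.0956) and in the formula of the study (adjusted p = 0.0554). Efemp2 encodes fibulin-4, which brings lysyl oxidase to tropoelastin. Its level was 393, 381 and 401 CPM in GRwt/wt of run 1 and 281, 277 and 274 CPM in GRko/ko (log2 difference -0.50, SE 0.05, adjusted p = 2.91e-10, edgeR), and in the other mutants its log2 difference lay between -0.02 and 0.10. The gene overlaps Mus81 on the opposite strand, and the strand setting of the counting is not given in the sources used here.

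Fbln5 was higher in 3 of the 4 mutants. It was at 505, 522 and 515 CPM in GRwt/wt of run 1, at 601, 559 and 592 CPM in GRD+L/D+L and at 673, 694 and 643 CPM in GRko/ko, with no overlap between GRwt/wt and either mutant. The log2 difference was 0.18 (SE 0.04, adjusted p = 0.000379) in GRD+L/D+L and 0.38 (SE 0.04, adjusted p = 2.23e-10) in GRko/ko, and in GRL/L it was 0.27 (SE 0.04, adjusted p = 3.94e-06) against GRwt/wt of run 2, all by edgeR. GRD/D was not called (log2 difference -0.04, adjusted p = 0.631).

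The vehicle level of Lox differed little. Its log2 difference from GRwt/wt was 0.16 (adjusted p = 0.0207) in GRD/D, 0.12 (0.0435) in GRD+L/D+L, -0.15 (0.00683) in GRko/ko and 0.06 (0.46) in GRL/L, with an SE of 0.05 in each (edgeR). The call in GRD/D was lost without replicate 1 or 3 of either genotype (adjusted p from 0.0549 to 0.186), that in GRD+L/D+L without any of its 3 libraries or GRwt/wt replicate 1 or 3 (0.0618 to 0.281), and that in GRko/ko without GRwt/wt replicate 2 (adjusted p = 0.0634) and in the formula of the study (log2 difference -0.04, adjusted p = 0.716). Lox and Fbn2 lie on the same chromosome as Nr3c1, at a distance of 13 and 18.5 Mb, and flanking sequence that travels with the mutant alleles cannot be told apart from the alleles. Each of these 2 genes, as well as Eln and Fbn1, overlaps a predicted gene on the opposite strand in the annotation.

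Markers of other cells differed between genotypes as well. The sum of 5 macrophage markers was 38.4 to 64.8 CPM in vehicle-treated GRwt/wt of run 1, 134 to 139.6 in GRD/D, 9.73 to 11.4 in GRD+L/D+L and 701 to 732 in GRko/ko, and it was 69.1 to 79.5 in GRwt/wt and 142 to 168 in GRL/L of run 2. All 5 were called higher in GRD/D, GRko/ko and GRL/L and all 5 lower in GRD+L/D+L. The sum of 5 cartilage markers was 18.8 to 21 CPM in GRwt/wt of run 1, 20.2 to 30.9 in GRD/D, 27.8 to 30.6 in GRD+L/D+L and 179.6 to 521 in GRko/ko, and 59.6 to 75.7 in GRwt/wt and 104 to 107 in GRL/L of run 2. Mean Eln with vehicle was 2.31 CPM in GRwt/wt of run 1, 2.53 CPM in GRD/D, 4.13 CPM in GRD+L/D+L and 68.7 CPM in GRko/ko. In run 2 it was 231 CPM in GRwt/wt and 385 CPM in GRL/L. These levels are set side by side across runs, and run cannot be told apart from culture. The part of macrophages and cartilage cells in the levels of the members was not tested. The sum of smooth muscle markers was 10313 to 10708 CPM in GRko/ko and 11185 to 11950.2 CPM in GRwt/wt of run 1. Single markers differed more, as 2 of 6 were called higher and 3 lower in GRko/ko, against 24.4% and 21.3% of all genes.

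Other genes of elastic fibres were examined in 4 lists. With Dex, genes for crosslinking and maturation rose in 4 of 8 in GRwt/wt of run 1, and 3 rose and 2 fell in run 2, where 7.74% of all genes rose in run 1 and 14.9% rose and 16.7% fell in run 2. Loxl3, a lysyl oxidase-like enzyme, went with Lox, with a log2 fold change of 0.37 in GRwt/wt of run 1 (adjusted p = 2.83e-07), 0.63 in run 2 (5.52e-13), 0.30 in GRD/D (3.11e-05), 0.62 in GRL/L (2.17e-12), 0.24 in GRD+L/D+L (0.00109) and -0.03 in GRko/ko (0.987). Tll1, a protease of the family that processes prolysyl oxidase, changed by 0.22 (adjusted p = 0.0308) and 1.10 (2.55e-14) in the 2 runs of GRwt/wt and by 0.72 (2.21e-09) in GRL/L. Loxl1, the crosslinking enzyme that partners with fibulin-5, changed by 0.17 (adjusted p = 0.0356) and 0.21 (0.00378) in GRwt/wt and by 0.35 (2.07e-05) in GRD/D, all by edgeR.

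Of the 7 integrin genes, 3 rose and 1 fell with Dex in GRwt/wt of run 1, and 4 rose and 3 fell in run 2, against 7.74% and 6.2% of all genes in run 1 and 14.9% and 16.7% in run 2. Itgb3, which encodes the beta chain of a fibrillin and fibulin receptor, fell from 123 CPM ± 14.6 (SD, n = 3) to 55.3 CPM ± 2.78 in run 1 and from 55.0 CPM ± 0.91 to 20 CPM ± 0.913 in run 2. Its log2 fold change was -1.16 (adjusted p = 1.14e-15) and -1.46 (2.8e-18) in GRwt/wt, -0.83 in GRD/D (1.26e-11), -1.07 in GRL/L (2.32e-14), -0.59 in GRD+L/D+L (1.46e-07) and 0.06 in GRko/ko (0.956), and the change in GRko/ko differed from that in GRwt/wt by 1.22 (adjusted p = 3.63e-12, edgeR). Itga5, the alpha chain of the fibronectin receptor, rose by 0.54 (adjusted p = 1.23e-09) and 0.83 (9.42e-15) in the 2 runs of GRwt/wt, and Itga8 by 0.45 (0.000171) and 1.04 (6.73e-13).

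Of 15 listed genes of microfibrils and elastin-associated proteins 14 were tested, Emilin3 being too low, and 1 rose with Dex in GRwt/wt of run 1, and 4 rose and 3 fell in run 2, against the same shares of all genes, 7.74% higher in run 1 and 14.9% higher and 16.7% lower in run 2. The 1 called in both runs was Hmcn1, which encodes hemicentin-1, with log2 fold changes of 0.54 (adjusted p = 0.00203) and 0.44 (0.00106). Of 5 elastin-degrading proteases, 1 fell in run 1, where 6.2% of all genes fell. It was Mmp12, the macrophage elastase (log2 fold change -0.47, adjusted p = 0.0374). Mmp12 fell by 0.47 in run 2 as well (adjusted p = 0.00133), where Mmp9 fell by 1.69 (9.77e-07) and 1 other protease rose. Adamtsl2, which binds fibrillin-1, rose by 2.13 in GRwt/wt of run 2 (adjusted p = 1.03e-11), from 1.45 CPM ± 0.164 to 6.37 CPM ± 1.08 (SD, n = 3), and by 0.80 in GRL/L (adjusted p = 0.000424), and these changes differed (log2 difference -1.33, adjusted p = 0.00134, edgeR). In GRwt/wt of run 1 it was not called, at 0.905 CPM ± 0.168 with vehicle and 0.954 CPM ± 0.297 with Dex (SD, n = 3). The changes of Adamtsl2 and of Mmp9 with Dex were each called as different between the GRwt/wt runs.

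With vehicle alone, 10 of the 14 microfibril and elastin-associated genes were higher in GRko/ko than in GRwt/wt and 1 was lower, with a median log2 difference of 0.75, against a median of 0.014 over all genes tested. The higher ones included Fbln7 (log2 difference 2.30, at a mean of only 1.46 CPM), Mfap4 (1.74, adjusted p = 9.1e-13), whose protein binds tropoelastin, Ltbp4 (1.21, 4.16e-13) and Ltbp1 (1.11, 3.26e-18), latent TGF-beta binding proteins of microfibrils, and Adamts10 (1.09, 5.68e-18). In GRL/L, 8 of the 14 were higher and none lower (median 0.33, against 0.004 over all genes), among them Fbln7 (1.47, adjusted p = 7.96e-07) and Adamtsl2 (1.08, 0.00021). In GRD+L/D+L, 5 were higher, Fbln7 among them (2.00, adjusted p = 0.00135), and 4 lower, among them Adamtsl2 (-1.88, 0.0026, at a mean of 0.243 CPM). In GRD/D, 3 were higher and 4 lower. Over all genes tested, 24.4% were higher and 21.3% lower in GRko/ko, 6.88% and 4.47% in GRL/L, 13.9% and 15.9% in GRD+L/D+L and 5.66% and 3.89% in GRD/D, which are also the shares beside which the protease counts stand.

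Of 8 crosslinking and maturation genes, 3 were lower in GRD/D, 4 in GRD+L/D+L and 5 in GRko/ko, where 3.89%, 15.9% and 21.3% of all genes were. Those higher numbered 0, 0 and 2, against 5.66%, 13.9% and 24.4%. Loxl3 was at 573 CPM ± 11.6 in GRwt/wt, 491 ± 13.9 in GRD/D, 338 ± 5.29 in GRD+L/D+L and 207 ± 8.99 in GRko/ko (SD, n = 3), with a log2 difference of -0.22 (adjusted p = 0.00167), -0.76 (8.23e-15) and -1.47 (1.17e-23) by edgeR. The libraries of these 4 genotypes did not overlap. In GRL/L, against GRwt/wt of run 2, 1 of the 8 crosslinking and maturation genes was higher and 1 lower. Of all genes tested, 6.88% were higher and 4.47% lower there.

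Elastin-degrading proteases differed between genotypes, 2 of 5 higher and 2 lower in GRD/D, 0 and 4 in GRD+L/D+L, 2 and 1 in GRko/ko and 2 and 0 in GRL/L. Ctss, cathepsin S, was at 19 CPM ± 7.42 in GRwt/wt, 51.8 ± 4.37 in GRD/D, 2.33 ± 0.135 in GRD+L/D+L and 155 ± 7.36 in GRko/ko (SD, n = 3), with log2 differences of 1.45, -3.02 and 3.03 (adjusted p = 7.45e-09, 7.26e-12 and 1.07e-19, edgeR). Mmp12 was 2.31 lower on the log2 scale in GRD+L/D+L and 1.78 higher in GRko/ko (adjusted p = 2.15e-11 and 2.92e-14). Ctsk, cathepsin K, was lower in GRko/ko (log2 difference -1.54, adjusted p = 5.21e-20), and Mmp9 in GRD+L/D+L (-1.18, 0.000681). The macrophage markers were higher in GRD/D, GRko/ko and GRL/L and lower in GRD+L/D+L. In run 1, Ctss differed in the same directions, as did Mmp12 in GRD+L/D+L and GRko/ko and Mmp9 in GRD+L/D+L. Mmp12 was not called in GRL/L (0.06, adjusted p = 0.815, edgeR). Mmp9 was not called in GRko/ko (0.07, 0.834) and was lower in GRD/D (-0.78, 0.0402). The part of macrophages in these values was not tested.

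**Figure D4:**
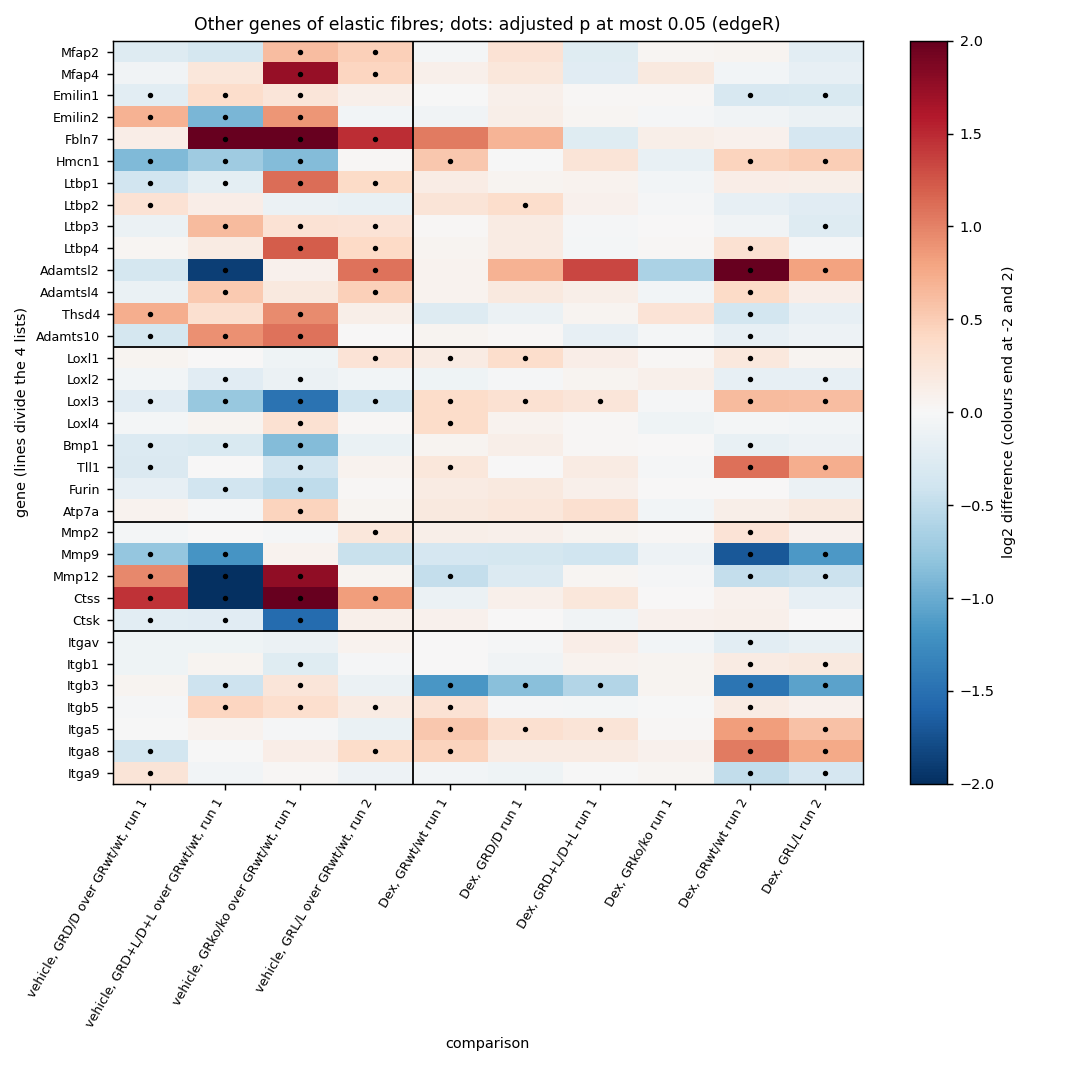
Log2 differences of the other genes of elastic fibres (rows; from the top, microfibril and elastin-associated genes, crosslinking and maturation, elastin-degrading proteases and integrin receptors) in the vehicle comparisons and with Dex (columns), in red where higher and blue where lower, with dots at an adjusted p of at most 0.05 in edgeR. The column of Dex in GRko/ko has no dot, and Loxl3 has one in each of the other 5 Dex columns.

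The differences between genotypes in the change with Dex were few among the members. None was called for GRD/D (3.29% of all genes were) or GRD+L/D+L (3.23%), with 1 member each at an unadjusted p under 0.05 in edgeR, which was Lox, and 0 by DESeq2. In GRL/L 1 was called (1.85% of all genes), in GRko/ko 1 (8.48%) and between the GRwt/wt runs 1 (7.09%), and each of these 3 was Lox.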

How the data were processed

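Bulk RNA-seq of MEFs was analysed from unnormalised gene counts, which the authors deposited as 1 matrix. The submitters' processing notes name FastQC, HISAT2 2.1.0, featureCounts 2.0.0, DESeq2 and build mm10, and the strand setting is not given in the sources used here. All 24 libraries of run 1 and 12 of run 2 were used, grouped by genotype, run and treatment from the labels, and 0 columns belonged to no sample. Gene symbols were found for 55141 of 55487 identifiers. In R 4.3.3, counts were filtered with filterByExpr, scaled by TMM and fitted with the quasi-likelihood test of edgeR 4.0.16 (limma 3.58.1) in 1 model of 12 groups, with contrasts within a run, except for the comparison of the Dex change between the GRwt/wt runs. P-values were adjusted by Benjamini-Hochberg over the 15489 genes tested, and a gene was called at an adjusted p of at most 0.05. The biological coefficient of variation was 0.0513. The scripts were tested on simulated data. Exon lengths came from GENCODE and promoters from RefSeq. Figures were drawn with Python 3.11.15 and matplotlib 3.10.9.

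Alternatives were DESeq2 1.42.0, its size factors, no filter or at least 10 counts in every library, a limit of 1 on the log2 fold change as in the study, a fit of only the genotypes compared, the formula of the study with GRwt/wt of both runs pooled, a replicate block, and leaving out each library. The members and lists were chosen with earlier results of these data known. Of the other genes of elastic fibres, those named were up to 3 per list with the largest mean change with Dex among those called in the same direction in both GRwt/wt runs, and those called with a log2 difference of at least 1 in a vehicle comparison or in a difference of the Dex change. An experiment at a lower dose of Dex was not analysed here.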

Additional observations from a re-analysis of the deposited data

Results flagged for a closer look

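The change of Lox with Dex differed between groups, by the test of the difference itself in edgeR, in 3 comparisons. It was smaller in GRL/L than in GRwt/wt of run 2 (log2 difference -0.27, adjusted p = 0.0242; not called with only the genotypes compared, adjusted p = 0.146, in the formula of the study, -0.02 and 0.978, or without any 1 of 7 of the 12 libraries), smaller in GRko/ko than in GRwt/wt of run 1 (log2 difference -0.31, adjusted p = 0.00119) and larger in GRwt/wt of run 2 than of run 1 (log2 difference 0.50, adjusted p = 1.48e-06).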

How the results depend on the processing

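None of the members' log2 differences that were called in either fit changed sign under an alternative; for members called under neither fit the sign was not compared. With the study's limit of 1 on the log2 scale, 3 members were called with vehicle in GRD+L/D+L and 3 in GRko/ko, and 0 in the other comparisons. With no filter on low counts, the members called with Dex numbered 2 in GRwt/wt of run 1, 4 in GRL/L and 2 in GRD+L/D+L, and the differences in Dex change 1 in GRD/D, 2 in GRL/L, 1 in GRD+L/D+L and 4 between the runs. With only the genotypes compared, Dex called 2 in GRwt/wt of run 1, 0 in GRD/D, 4 in GRL/L and 3 in GRD+L/D+L, vehicle called 1 in GRD/D, and the difference in Dex change was called for 0 in GRL/L and 1 in GRD+L/D+L. In the formula of the study, Dex called 4 in GRwt/wt, 1 in GRD/D and 0 in GRD+L/D+L, and the difference in Dex change 2 in GRD/D, 0 in GRL/L and 1 in GRD+L/D+L. Leaving out 1 library gave, with Dex, 1 to 1 in GRwt/wt of run 1, 4 to 5 in run 2, 1 to 5 in GRD/D (1 without vehicle replicate 2; 2 without any 1 of its Dex replicates), 2 to 3 in GRL/L, 1 to 1 in GRD+L/D+L and 0 to 0 in GRko/ko. With vehicle it gave 1 to 3 in GRD/D (1 without GRD/D replicate 1 or GRwt/wt replicate 3), 4 to 5 in GRL/L, 5 to 6 in GRD+L/D+L and 8 to 10 in GRko/ko. For the difference in Dex change it gave 0 to 1 in GRD/D (1 without vehicle replicate 3, for Fbn2), 0 to 1 in GRL/L, 0 to 0 in GRD+L/D+L, 1 to 1 in GRko/ko and 1 to 3 between the runs (3 without GRwt/wt run 1 vehicle replicate 3, 2 without run 2 Dex replicate 6). The replicate numbers did not pair the libraries, whose correlations with the same number ran from -0.161 to 0.236 and were not best for their own number in every library; the replicate block moved the count between the runs to 2, with Fbn1 added, and no other count by over 1.5 times. Eln in 3 genotypes of run 1 rested on few reads, which limits its precision.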
